A study of Mus musculus with 6 samples.

Results

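Cd6, Cd5, Cd2, Cd96, Cd226, Lax1, Trat1, Sh2d1a, Skap1 and Ubash3a encode receptors on the surface of T cells and the adaptor proteins that pass on or dampen their signals. They were 10 of 54532 genes in a table of bulk RNA sequencing of mouse hearts on day 7 post-MI, and were picked by gene symbol with their levels in Crlf2-/- and WT mice already known. The difference between genotypes therefore chose these genes, and it is described below without a test. TSLP is a cytokine of barrier tissues, its specific receptor chain is encoded by Crlf2, and the study asked how loss of this receptor altered gene expression in the infarcted heart. The 6 libraries came from 3 WT and 3 Crlf2-/- mice of the C57BL/6 strain, and all 6 mice had their left anterior descending coronary artery permanently ligated 7 days before the heart was taken. No sham-operated or uninjured heart is analysed here, so every value belongs to an infarcted heart. The study's methods list purchased adult male C57BL/6J mice and a knockout line that another supplier generated on a C57BL/6J background. They do not say from which source the sequenced WT mice came, so genotype and origin of the mice cannot be told apart. The study sequenced peri-infarcted and infarcted tissue, 1 library per mouse, and no cells were sorted.

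A T cell that meets its antigen signals through the T cell receptor, the CD3 chains and the kinases Lck and Zap70. Surface receptors beside it set how strongly the cell adheres and responds: CD5 and CD6 carry scavenger receptor domains and temper the signal, CD2 strengthens adhesion, and CD226 and CD96 share ligands of the nectin family with partly opposing effects. Inside the cell, adaptors without enzyme activity of their own, such as LAX1, TRAT1, SAP (the product of Sh2d1a) and SKAP1, gather kinases and phosphatases at these receptors, while UBASH3A restrains the signal. Most of these genes are also used outside conventional T cells, CD96, CD226 and SAP in NK cells, CD5 and LAX1 in B cells. T cells enter the infarcted heart within days of the injury and take part in scar formation.

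The levels are FPKM, fragments scaled to gene length and to library size, which the authors deposited, and the number of fragments behind each value was recovered from them. Each library held 18508646 to 19682428 fragments on the genes of the table. The 10 genes were rare transcripts in this tissue, with between 0 and 81 fragments per gene and library, so counting error alone is large for each value.

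The sequence before the start of transcription, which played no part in the choice of the genes, is shown for 4 genes, because these 4 hold at least 1 match to motifs of factors used in lymphocytes. RefSeq windows on GRCm38.p6 were at hand for Cd5, Lax1, Cd96, Trat1 and Ubash3a. Each run is the 250 bases before the start, 5′ to 3′ on the gene's own strand. Capitals mark matches, on either strand, to the letters AGGAAG (ETS), TGTGGT (RUNX), CAGGTG (E-box), CTTTGA (TCF/LEF) or GGAAAA (NFAT), and no marked match overlapped another. The windows lie on the minus strand at chr1:133690109-133690358 for Lax1, chr16:46120249-46120498 for Cd96, chr16:48772063-48772312 for Trat1 and chr19:10738975-10739224 for Cd5.
Lax1: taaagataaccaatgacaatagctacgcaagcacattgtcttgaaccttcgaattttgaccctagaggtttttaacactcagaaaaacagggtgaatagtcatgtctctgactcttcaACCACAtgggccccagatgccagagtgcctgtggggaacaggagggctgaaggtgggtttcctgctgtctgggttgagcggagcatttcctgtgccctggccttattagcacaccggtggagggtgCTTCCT
Cd96: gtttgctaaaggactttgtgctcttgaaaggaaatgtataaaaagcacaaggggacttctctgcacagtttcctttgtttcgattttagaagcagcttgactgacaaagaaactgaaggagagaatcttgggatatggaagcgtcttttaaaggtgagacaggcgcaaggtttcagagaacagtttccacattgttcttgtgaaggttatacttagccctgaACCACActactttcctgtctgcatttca
Trat1: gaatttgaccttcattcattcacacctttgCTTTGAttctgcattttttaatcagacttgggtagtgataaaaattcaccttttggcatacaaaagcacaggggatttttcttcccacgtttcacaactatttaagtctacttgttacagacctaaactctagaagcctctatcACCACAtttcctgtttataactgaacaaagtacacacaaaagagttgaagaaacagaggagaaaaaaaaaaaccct
Cd5: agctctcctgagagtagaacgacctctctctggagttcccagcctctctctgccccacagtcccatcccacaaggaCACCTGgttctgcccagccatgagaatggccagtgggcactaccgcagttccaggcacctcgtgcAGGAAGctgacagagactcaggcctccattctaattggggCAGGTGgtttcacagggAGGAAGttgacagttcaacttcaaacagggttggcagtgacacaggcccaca

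The RUNX letters were found before Lax1, Cd96 and Trat1, 3 of the 5 genes, and in 14% of all 32851 windows of the same length. In each of the 3 genes the match lay on the opposite strand, 132 bases before the start of Lax1, 28 before that of Cd96 and 76 before that of Trat1. Lax1 has a further RefSeq start, whose window is not printed, with the RUNX letters 224 bases and the ETS letters 98 and 32 bases before it. The ETS letters were found before Cd5 and Lax1, against 29.5% of all windows, with a pair of matches before Cd5 at 109 and 52 bases. The E-box letters were found before Cd5 alone, against 17.2% of all windows, and the TCF/LEF letters before Trat1 alone, against 13.8%. The NFAT letters were in none of the 5 genes' windows and in 20.4% of all windows, and the window of Ubash3a held none of the 5 motifs. These are matches of letters and do not show that a factor binds there.

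All 10 genes had a lower mean level in Crlf2-/- than in WT hearts, with the Crlf2-/- mean between 31.0% (Trat1) and 63.1% (Cd96) of the WT mean. Among the 15520 genes with enough fragments to test, 51.7% had a lower mean in Crlf2-/- mice. For 8 of the 10 genes all 3 Crlf2-/- values were under all 3 WT values, and Cd96 and Sh2d1a were the exceptions; 6.45% of all tested genes had such a pattern. Since the contrast chose the genes, nothing is read from this excess. In tissue RNA, fewer T cells and less of a transcript per T cell cannot be told apart.

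**Figure D1:**
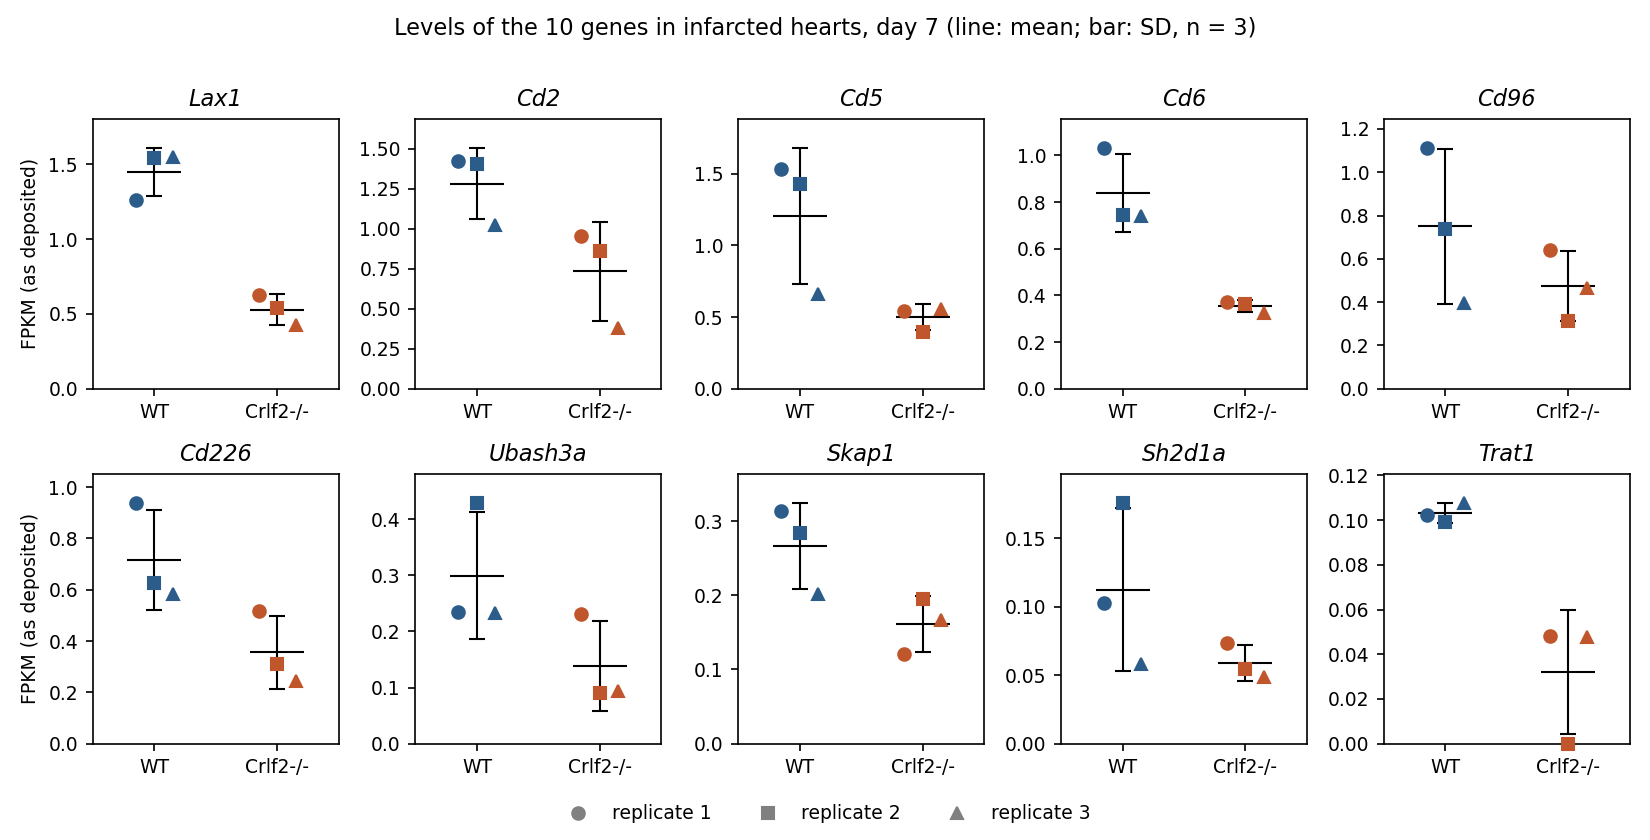
Level of each of the 10 genes in FPKM (vertical axes, each starting at 0) in the 3 WT and the 3 Crlf2-/- hearts. Each point is 1 library, the horizontal line is the mean and the vertical bar the SD (n = 3); all Crlf2-/- points lie below all WT points for 8 genes, while those of Cd96 and Sh2d1a overlap.

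Cd5 and Cd6 encode paired scavenger receptors, of which CD6 binds the adhesion molecule ALCAM. Cd6 measured 1.03, 0.746 and 0.739 FPKM in the 3 WT hearts and 0.371, 0.365 and 0.326 FPKM in the Crlf2-/- hearts. All 3 Crlf2-/- values lay close together and under every WT value. The mean went from 0.839 ± 0.168 FPKM to 0.354 ± 0.0245 FPKM (SD, n = 3), which left 42.2% of the WT level. On the log2(FPKM + 0.1) scale of the fit the difference was -1.03 (SE 0.21). Cd5 measured 1.53, 1.43 and 0.663 FPKM in WT and 0.545, 0.394 and 0.558 FPKM in Crlf2-/- hearts. WT mouse 3 stood well under the other two WT mice and only a little above the highest Crlf2-/- heart. The Cd5 means were 1.21 ± 0.474 and 0.499 ± 0.0911 FPKM, and the log2 difference was -1.06 (SE 0.32). In the deposited table Cd5 (chr19:10718143-10738974) and Cd6 (chr19:10789341-10830058) lie on the same strand with 50366 bases between them.

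CD2 is an adhesion and co-stimulatory receptor that binds CD48 in mice. Cd2 measured 1.42, 1.40 and 1.02 FPKM in WT hearts and 0.958, 0.862 and 0.382 FPKM in Crlf2-/- hearts. The lowest WT value and the highest Crlf2-/- value nearly met, and Crlf2-/- mouse 3 was far under the others of its genotype. The means were 1.28 ± 0.225 and 0.734 ± 0.308 FPKM, 57.2% of WT remained, and the log2 difference was -0.79 (SE 0.31), or -0.44 without Crlf2-/- mouse 3.

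CD226 activates T and NK cells when it meets the nectin-like molecule PVR, and CD96 binds the same ligand. Cd226 measured 0.940, 0.627 and 0.582 FPKM in WT and 0.516, 0.309 and 0.245 FPKM in Crlf2-/- hearts. The groups did not overlap, although the gap between them was small beside the range within each. The Cd226 means were 0.716 ± 0.195 and 0.357 ± 0.142 FPKM, 49.8% of WT, with a log2 difference of -0.85 (SE 0.29). Cd96 measured 1.11, 0.740 and 0.398 FPKM in WT and 0.640, 0.314 and 0.467 FPKM in Crlf2-/- hearts. WT mouse 3 lay below 2 of the 3 Crlf2-/- mice, so the groups overlapped. The Cd96 log2 difference of -0.51 (SE 0.36) was -0.20 without WT mouse 1, -0.85 without WT mouse 3 and -0.29 without Crlf2-/- mouse 2.

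LAX1 and TRAT1 are transmembrane adaptors with short outer parts, and LAX1 dampens antigen receptor signals in T and B cells. Lax1 had the highest mean of the 10 genes in WT hearts. It measured 1.26, 1.54 and 1.54 FPKM in WT and 0.625, 0.538 and 0.423 FPKM in Crlf2-/- hearts, from between 22 and 78 fragments. Even the lowest WT heart was well above the highest Crlf2-/- heart, and both groups were tight. The means were 1.45 ± 0.163 and 0.529 ± 0.101 FPKM, 36.5% of WT, and the log2 difference was -1.30 (SE 0.20). Trat1, whose product associates with the T cell receptor, had the lowest level of the 10 genes. It measured 0.102, 0.0989 and 0.108 FPKM in WT and 0.0483, 0 and 0.0476 FPKM in Crlf2-/- hearts. The 3 WT values rest on 11, 10 and 11 fragments and the Crlf2-/- values on 5, 0 and 5. A count of 0 allows up to 3 fragments, here 0.0276 FPKM, which covers counting error only. Trat1 passed the filter on low genes only through its WT libraries, and its log2 difference of -0.64 (SE 0.25) depended on the scale, at -1.80 with a pseudocount of 0.01, -0.096 with a pseudocount of 1 and -2.20 in voom.

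SAP couples receptors of the SLAM family to the kinase Fyn, SKAP1 links the T cell receptor to integrin adhesion, and UBASH3A tempers receptor signalling. Ubash3a measured 0.235, 0.430 and 0.234 FPKM in WT and 0.230, 0.0902 and 0.0933 FPKM in Crlf2-/- hearts. The highest Crlf2-/- heart lay only 0.00333 FPKM below the lowest WT heart, so the groups were barely apart. The Ubash3a log2 difference was -0.76 (SE 0.31). Skap1 measured 0.314, 0.285 and 0.202 FPKM in WT and 0.121, 0.195 and 0.166 FPKM in Crlf2-/- hearts. Its groups were separated by just 0.00694 FPKM, and its log2 difference was -0.49 (SE 0.24). Sh2d1a measured 0.103, 0.176 and 0.0582 FPKM in WT and 0.0737, 0.0545 and 0.0484 FPKM in Crlf2-/- hearts. The groups overlapped, and with 6 to 21 fragments per library Sh2d1a reached 10 fragments in too few libraries to be tested.

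Exons of Sh2d1a share 1465 bases with Tenm1 on the opposite strand, and those of Skap1 share 186 bases with 2010300F17Rik on the opposite strand. Tenm1 was listed at 0 in all 6 libraries, whereas 2010300F17Rik had between 17 and 43 fragments. Whether fragments were counted by strand is not given in the sources used here, so fragments on the bases Skap1 shares could come from either gene.

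In the fit over all tested genes, limma called 2 genes different between genotypes (0.0129%), 1 of them lower in Crlf2-/- hearts (0.00644%). A call needed an adjusted p (Benjamini-Hochberg) no larger than 0.05 together with a log2 difference of 0.5 or more in size. None of the 9 tested genes of the group was among them, and limma's voom on the fragments called 3 genes (0.0193%), again 0 of the 9. The study's own count test, at the same thresholds, called far more genes and reported Cd6 as lower in Crlf2-/- hearts. That test was not repeated here, so the counts above belong to limma and voom only. An unadjusted p under 0.05 was reached by 7 of the 9 in limma and 7 in voom, where 3.36% and 3.22% of all tested genes were lower in Crlf2-/- hearts at that p. The median log2 difference was -0.79 for the 9 genes and -0.0042 for all tested genes. Trat1, 1 of the 9, passed the filter on low genes only through its WT libraries. These shares and p-values describe genes picked for this contrast, so they are no test of it and not evidence for it.

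The same libraries tended to be high or low for most of the 10 genes within a genotype. WT mouse 3 was the lowest WT mouse for 8 of the 10 genes, and Crlf2-/- mouse 1 was the highest Crlf2-/- mouse for 8. Their summed level was 8.05, 7.47 and 5.55 FPKM in WT hearts and 4.13, 3.12 and 2.76 FPKM in Crlf2-/- hearts. The sums did not overlap, and the mean sum in Crlf2-/- hearts was 47.5% of that in WT hearts. Between mice of 1 genotype the coefficient of variation ranged from 4.36% (Trat1) to 53.0% (Sh2d1a) in WT. In Crlf2-/- hearts it ranged from 6.93% (Cd6) to 86.6% (Trat1).

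In WT hearts the order of the mean levels was Lax1, Cd2, Cd5, Cd6, Cd96, Cd226, Ubash3a, Skap1, Sh2d1a and Trat1. Only the steps from Cd226 to Ubash3a and from Skap1 to Sh2d1a separated neighbours whose WT values did not overlap. By mean level the 6 genes down to Cd226 formed an upper tier of 0.716 to 1.45 FPKM, and the other 4 lay between 0.103 and 0.299 FPKM. In single WT hearts the tiers overlapped, since Cd96 in WT mouse 3 (0.398 FPKM) was below Ubash3a in WT mouse 2 (0.430 FPKM). The upper tier held all 5 surface receptors and Lax1, while the lower tier held Trat1 and the 3 adaptors or regulators inside the cell. Both steps also separated the values in Crlf2-/- hearts, where Cd2 (0.734 FPKM) had the highest mean and Lax1 (0.529 FPKM) came next.

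The genes next to them on the chromosomes had differences centred near 0. The 10 genes lie on 8 chromosomes, with Cd96 (chr16:46035657-46120251) and Trat1 (chr16:48730774-48772021) 2610522 bases apart as the only pair besides Cd5 and Cd6. Lax1 is at chr1:133679091-133690108, Cd2 at chr3:101275899-101287939, Skap1 at chr11:96464593-96759130, Ubash3a at chr17:31207873-31242202 and Sh2d1a at chrX:42502453-42529330 in the deposited table. Of the 18 nearest tested protein-coding genes on either side, 9 had a log2 difference below 0, and the median was -0.0025. At an unadjusted limma p under 0.05, 1 of the 18 was lower and 0 were higher, where 6.58% of all tested genes passed in either direction. That gene was Rsph1, 8127 bases after Ubash3a, at -0.80 (adjusted p 0.723 by limma); it was named after its value was seen.

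Genes of the T cell receptor and its first kinases were lower alongside the 10 genes. Of 14 such genes, 12 had an unadjusted limma p under 0.05 in the lower direction, 0 in the higher and 0 passed the adjusted threshold, with a median log2 difference of -1.09. These 14 genes were listed with earlier results of these data known, and 3.36% of all tested genes were lower at that p. The CD3 chains differed by -1.18 (Cd3d), -1.33 (Cd3e), -1.48 (Cd3g) and -1.44 (Cd247). The largest differences were those of Cd8a (-1.62), Trbc2 (-1.56) and Cd8b1 (-1.55), whereas Cd4 stood at 0.02 and Ptprc, the CD45 gene of all leukocytes, at 0.14. Also among the 12 were Trac (-0.77), Trbc1 (-0.75), Lck (-0.996) and Zap70 (-0.90). Trbc1 and Trbc2 are near-identical, so how fragments were split between them is uncertain. The smallest adjusted p on the list, for Trbc2, was 0.0637 by limma.

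**Figure D2:**
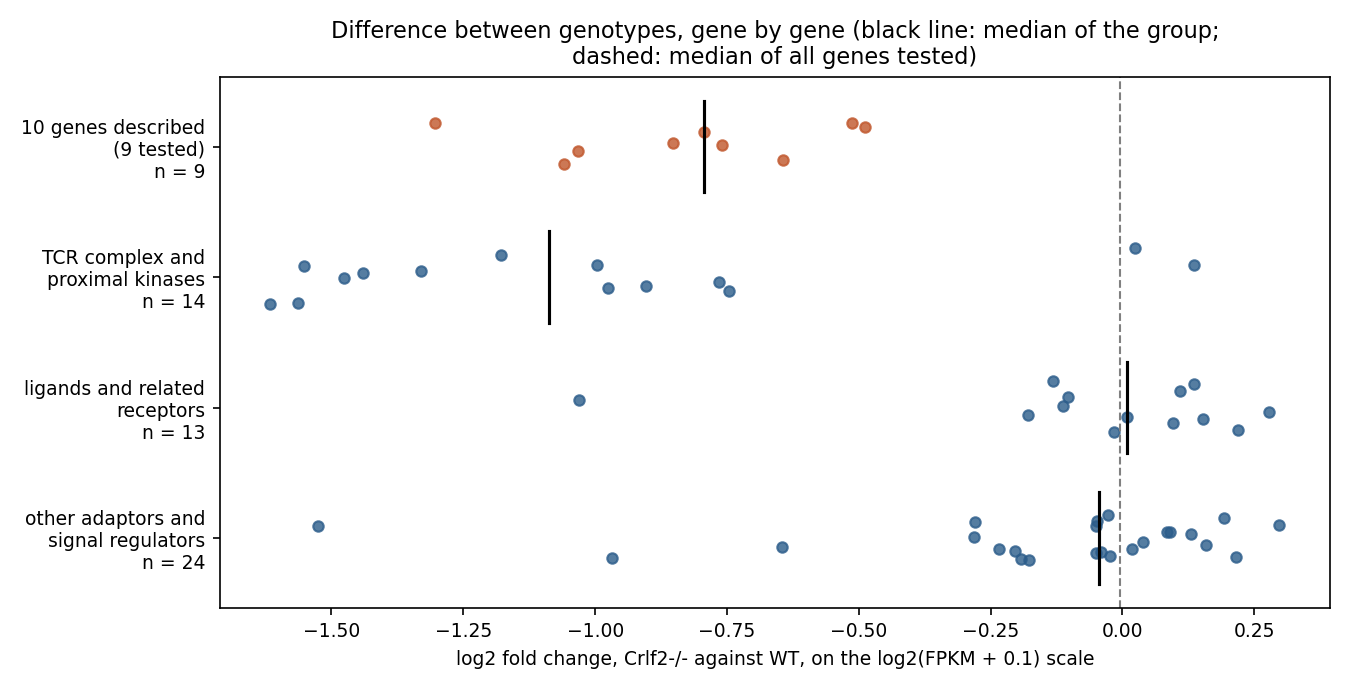
Log2 difference of Crlf2-/- against WT hearts on the log2(FPKM + 0.1) scale (horizontal axis) for single genes of the 10 described and of the lists of related genes, with a black line at the median of each list and a dashed line at the median of all tested genes. The 9 tested genes and the T cell receptor list sit mostly left of 0 (medians -0.79 and -1.09), while the ligands and the other adaptors centre near 0 (0.01 and -0.04).

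The partners of the surface receptors, most of them carried by other cells, had levels that overlapped between genotypes for most genes. Of 14 ligands and related receptors, 13 were tested, and 0 reached an unadjusted limma p under 0.05 in either direction, with a median of 0.01. Of all tested genes, 6.58% reached that p. Cd48, the ligand of CD2, was abundant at 48.1 ± 9.93 FPKM in WT and 44.2 ± 7.67 FPKM in Crlf2-/- hearts (SD, n = 3; log2 difference -0.11, SE 0.19). Alcam, a ligand of CD6, differed by -0.10 (SE 0.19). Cdcp1, also on the list and named after its values were seen, stood at 0.22 (SE 0.21) with no overlap between genotypes. Among the partners of CD226 and CD96, Pvr differed by 0.10 (SE 0.12), Nectin1 by -0.13 (SE 0.12) and Nectin2 by 0.15 (SE 0.13). The values of Nectin1 did not overlap between genotypes, while those of Pvr and Nectin2 did. Of the receptors that SAP can serve, those of at least 1 FPKM differed by 0.01 for Slamf7, -0.02 for Ly9, 0.11 for Cd84 and -0.18 for Cd244 (Cd244a in the table). Slamf1, of the same family and named after its values were seen, was too low to test, with 0.0634 FPKM in WT and 0.0212 FPKM in Crlf2-/- hearts on average and no overlap. Cd72, described as a partner of CD5, stood at 0.28 (SE 0.15). Tigit, which competes with CD226 for its ligands, had values that spread widely, from 0.398 to 1.46 FPKM in WT and from 0.193 to 0.793 FPKM in Crlf2-/- hearts, and its log2 difference of -1.03 (SE 0.54) was the largest in size among the 13.

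More abundant relatives of 3 of the genes inside the cell differed by 0.13 or less on the log2 scale. Skap2, the relative of Skap1, measured 6.70 ± 0.866 FPKM in WT and 6.58 ± 0.915 FPKM in Crlf2-/- hearts (log2 difference -0.02, adjusted p 0.996 by limma). Its level was 25.1 times that of Skap1 in WT and 40.9 times in Crlf2-/- hearts. Ubash3b, the relative of Ubash3a, measured 3.08 ± 0.0633 and 3.37 ± 0.104 FPKM (log2 difference 0.13, adjusted p 0.953 by limma), or 10.3 and 24.4 times Ubash3a. Sh2d1b1, the relative of Sh2d1a, measured 3.96 ± 0.475 and 3.98 ± 0.137 FPKM (log2 difference 0.02, adjusted p 0.996 by limma). In both genotypes the relative was thus far more abundant than the gene described here. All 3 Crlf2-/- values of Ubash3b lay above all 3 WT values, while the genotypes overlapped for Skap2 and Sh2d1b1. Of 24 tested genes among 26 other adaptors and signal regulators, 3 had an unadjusted p under 0.05 in the lower direction and 0 in the higher. They were the T cell adaptors Lat (-1.53, adjusted p 0.254), Themis (-0.97, adjusted p 0.254) and Sh2d2a (-0.65, adjusted p 0.635), all by limma, and the median of the list was -0.04. Of all tested genes, 3.36% were lower at that unadjusted p.

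Set against other transcripts of the same library, the 10 genes stood higher or lower in Crlf2-/- hearts depending on the reference. The summed CD3 chains went from 4.17 ± 1.14 to 1.40 ± 0.0649 FPKM (SD, n = 3), 33.7% of WT, a smaller remainder than for 9 of the 10 genes. Relative to that sum, 9 of the 10 genes had a higher mean ratio in Crlf2-/- hearts, with a median log2 ratio of 0.47 (0.27 without Crlf2-/- mouse 1) and a range from -0.19 to 0.91. The values of the genotypes were apart for 2 of them, Skap1 and Sh2d1a. Relative to the summed Trac, Trbc1 and Trbc2, which went from 18.9 to 9.33 FPKM, 4 genes were higher and 6 lower with a median of -0.07, and no gene had groups apart. Relative to Ptprc (10.1 and 11.04 FPKM), all 10 were lower, with a median of -1.28, and 7 had groups apart. None of these ratios was tested. No share over all genes was computed for them, so nothing is read from the numbers of genes apart. Sh2d1a, apart against the CD3 chains, rests on 6 to 21 fragments per library.

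**Figure D3:**
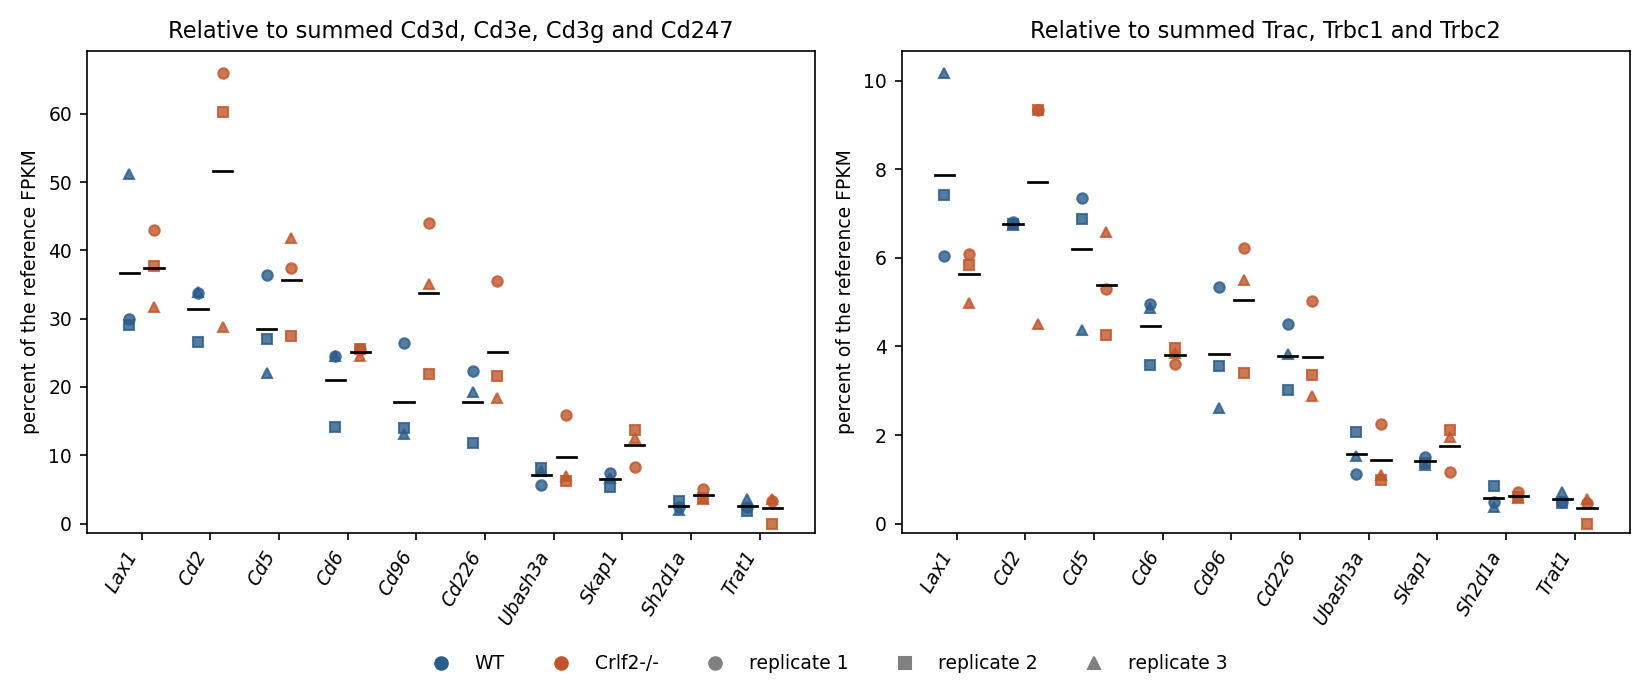
Level of each of the 10 genes as a percentage of the summed CD3 chains (left) or of the summed Trac, Trbc1 and Trbc2 (right) in the same library, with 1 point per library and a line at the mean of 3 WT or 3 Crlf2-/- hearts. On the left the mean is higher in Crlf2-/- hearts for 9 of 10 genes and the points are apart for Skap1 and Sh2d1a; on the right 4 means are higher and 6 lower, with no gene apart.

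Markers of several other cell types differed along with the 10 genes, and their part in the result was not tested. At an unadjusted limma p under 0.05, 3.36% of all tested genes were lower and 6.58% passed in either direction. Haemoglobin genes and Alas2, markers of red blood cells, were lower for 5 of 5 genes at an unadjusted limma p under 0.05, with summed levels of 226 to 370 FPKM in WT and 84.9 to 161 FPKM in Crlf2-/- hearts. Cardiomyocyte markers had negative differences for 8 of 8 genes, 3 of them (Tnni3, Pln and Myl2) at an unadjusted p under 0.05, with sums of 943 to 1824 and 623 to 1228 FPKM. Of 7 tested plasma cell markers 4 were lower at that p (Jchain, Mzb1, Derl3 and Pou2af1). By sign, 5 of the 7 had a log2 difference below 0 and 2 above. The sums over the list were 106 to 124 FPKM in WT and 78.4 to 98.2 FPKM in Crlf2-/- hearts. Most of each sum came from Xbp1 (means 59.8 and 47.5 FPKM) and Sdc1 (34.5 and 36.8 FPKM). Jchain went from 14.2 to 0.921 FPKM on average. Thymus and lymph node genes had 5 of 8 members under 10 fragments in every library, Rag2 among them at 0 throughout, and 1 of 3 tested, Cxcl13, was lower. Their sums ran from 11.6 to 21.1 FPKM in WT and from 2.13 to 23.3 FPKM in Crlf2-/- hearts.

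NK and B cells carry some of the 10 genes, and their summed markers overlapped between genotypes. Of 8 NK cell markers 1, Gzma, was lower and 0 were higher at an unadjusted limma p under 0.05, where 3.36% of all tested genes were lower. By sign, 6 of the 8 had a log2 difference above 0 and 2 below, with a median of 0.08. Their sums ran from 9.22 to 11.6 FPKM in WT and from 6.57 to 10.6 FPKM in Crlf2-/- hearts. Of 8 B cell markers 0 passed in either direction, and the sums were 7.64 to 9.87 and 7.36 to 11.5 FPKM. At the same p, 1 of 6 mast cell and type 2 innate lymphoid cell genes (Mcpt4), 2 of 6 dendritic cell genes (Zbtb46 and Ccr7) and 1 of 4 endothelial genes (Tek) were lower, 1 of 8 monocyte and macrophage genes (Fcgr1) was higher, and 0 of 5 neutrophil and 0 of 5 fibroblast genes passed. By sign, 6 of 6 dendritic cell genes (median -0.31), 5 of 6 mast and type 2 innate lymphoid cell genes and 3 of 4 endothelial genes were below 0. Above 0 were 7 of 8 monocyte and macrophage, 6 of 8 B cell, 3 of 5 neutrophil and 3 of 5 fibroblast genes. The marker genes named in this paragraph and in the one before it were chosen after their values were seen. WT mouse 3, low for most of the 10 genes, also had the lowest sum of monocyte and macrophage markers in WT (1699 FPKM, against 2305 and 3105 FPKM). Most of that sum was Lyz2 (1313 FPKM in WT mouse 3). Its sums for the T cell receptor, neutrophil, plasma cell and red blood cell lists were also the lowest in WT. Those for NK, dendritic, endothelial, and mast and type 2 innate lymphoid cells were the highest, as was Ptprc (11.5 FPKM).

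**Figure D4:**
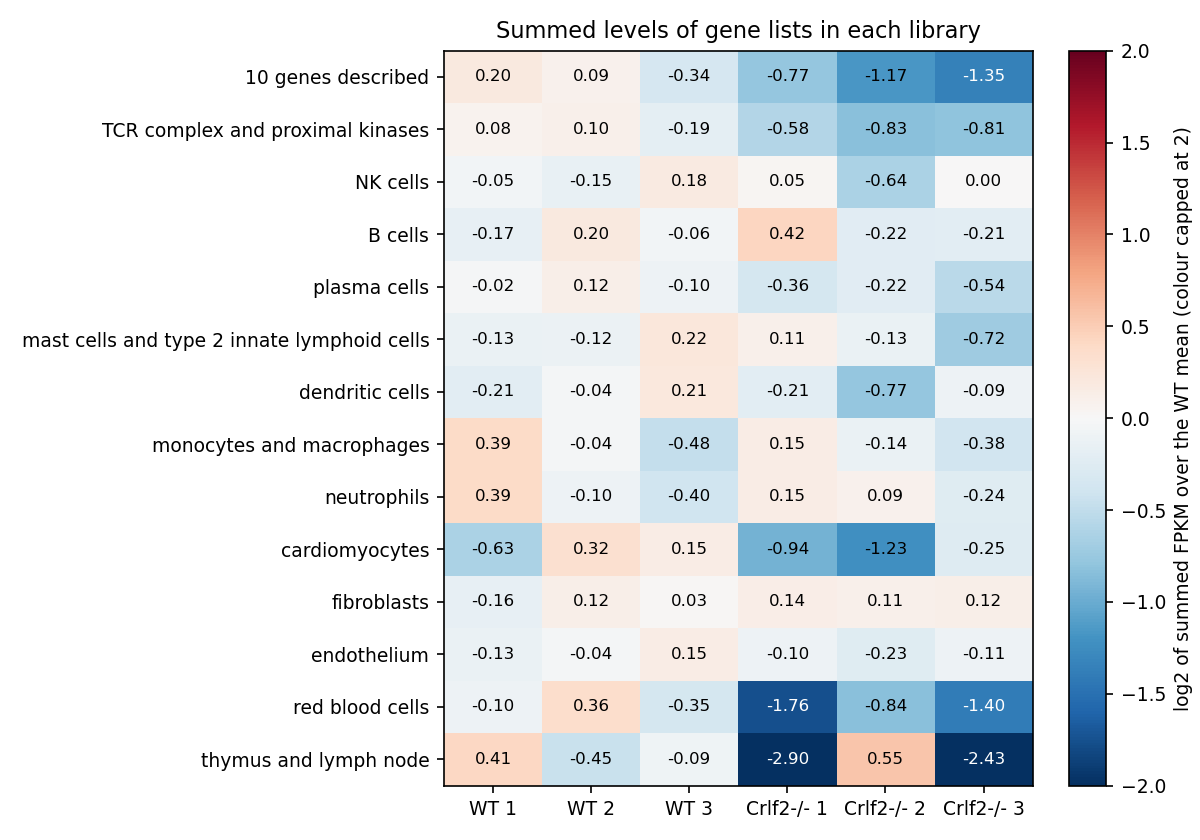
Summed FPKM of each marker list and of the 10 genes described (vertical axis) in each library (horizontal axis), with the colour and the printed number giving the log2 ratio to the WT mean, blue for lower and red for higher, and the colour capped at 2. The sums of the 10 genes, the T cell receptor list, plasma cells and red blood cells are lower in all 3 Crlf2-/- hearts than in any WT heart, while those of NK and B cells overlap.

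The target gene of the knockout was still measured in the Crlf2-/- hearts. Crlf2 stood at 26.6, 25.1 and 21.6 FPKM in WT and 13.2, 18.7 and 19.8 FPKM in Crlf2-/- hearts, with a log2 difference of -0.52 (SE 0.17, adjusted p 0.521 by limma). The direction matched the labels without overlap, and which exons the knockout removes is not given in the sources used here, so a level summed over the gene is a limited check. Cardiomyocyte markers at a summed 623 FPKM or more matched the heart as the labelled tissue, and the CD3 chains at a summed 1.33 to 5.29 FPKM were low beside them.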

How the data were processed

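Bulk RNA sequencing covered 3 WT and 3 Crlf2-/- mouse hearts. Per the study's methods, reads were trimmed, aligned with HISAT2 (version 2.0.5 in the submitters' processing notes) and counted per gene with featureCounts, and the authors deposited the result as FPKM. Those notes name the builds mm10 and hg38 without a role. Positions of 7 of the 10 genes equalled those of GENCODE M21 on GRCm38. The extraction protocol in the labels names another tissue, while the tissue label and the study's methods say heart. The table held 0 other columns of sample values.

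FPKM multiplied by gene length gave whole fragments for 100% of nonzero values (tolerance 0.02). After scaling by trimmed means of M values, log2(FPKM + 0.1) was fitted with limma 3.58.1 in R 4.3.3 (lmFit, then eBayes with the trend and robust options) in place of the study's count test. Tested genes had 10 or more fragments in 3 or more libraries and a total of 15 or more. Log2 differences on this scale understate changes of low genes. Fragment totals limit the precision, and intervals of sampling cover counting error only. The labels do not say how the mice were bred or handled together, so p-values measure the spread between these libraries. The script was tested on simulated data. Python 3.11.15 was used for the other steps.

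The 10 genes and all gene lists were chosen with earlier results of these data known. Named are the 10 genes, Crlf2, the CD3 chains, list genes with an unadjusted p under 0.05, and ligands and related receptors of at least 1 FPKM. For cell type lists the plan was at most 2 genes each, those of highest mean FPKM. The markers named beyond that plan were chosen after their values were seen, and some other genes are marked in the same way. Alternatives were other scalings, filters and pseudocounts, voom on fragments, the replicate number as a block, and leaving out each library; scaled FPKM for the overlap count was added after seeing the data. Promoter windows are RefSeq's. Protein sequences were not analysed here. The value of 1 listed gene is not reported here.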

Additional observations from a re-analysis of the deposited data

How the results depend on the processing

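Of 265 values recomputed under an alternative, 233 kept their direction and moved by less than 1 SD between mice (for counts, by no more than 1.5 times), 27 moved further and 5 changed direction. The log2 differences of the single genes kept their sign in all 124 of their alternatives. None of the 10 genes was called by limma or voom in a setting in which it was tested (Sh2d1a only without a filter, and 7 of the 10 with at least 10 fragments in every library). The number of genes called, 2, became 6 without a filter, 1 with at least 10 fragments in every library, and 1 to 14 with each library left out (14 without Crlf2-/- mouse 1, 8 without WT mouse 3). Genes at an unadjusted p under 0.05, 1021, numbered 674 (without WT mouse 2) to 1156 with a library left out and 1320 without a filter. The median of the 9 tested genes, -0.79, was -1.13 with a pseudocount of 0.01, -0.34 with 1 and -1.16 in voom. A pseudocount of 1 compresses differences of genes this low by construction, and the T cell receptor list's median became -0.62 with it. Leaving out libraries gave medians of -0.092 to 0.13 for the ligands, below 0 without WT mouse 2 (-0.069) or Crlf2-/- mouse 1 (-0.092), and -0.10 to 0.0066 for the other adaptors, above 0 without WT mouse 1. Their genes at an unadjusted p under 0.05 numbered 0 to 1 (1 without WT mouse 3, Crlf2-/- mouse 1 or Crlf2-/- mouse 2) and 2 to 5 (5 without Crlf2-/- mouse 1). The median ratio to the CD3 chains, 0.47, was -0.072 against the T cell receptor constant genes and -1.28 against Ptprc, and lay between 0.27 (without Crlf2-/- mouse 1) and 0.66 with a library left out. Except where stated, the cause was not tested.

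With the replicate number as a block, 4 genes were called and the median of the 9 tested genes was -0.79. Mice of the same number deviated from their group means with correlations of -0.016, 0.115 and 0.12, and 1 of the 3 WT mice correlated best with its own number. The numbers were therefore not read as a pairing.

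At these depths a gene near 10 fragments cannot show a small difference, and Sh2d1a and Trat1 are the most limited.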
